A study of Mus musculus with 12 samples.

Results

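Ascl2, Myc and 8 further genes of the crypt base (Sox9, Olfm4, Smoc2, Rgmb, Soat1, Cdca7, Slc12a2 and Tnfrsf19) were followed through all 12 RNA-seq libraries of sorted intestinal stem cells (ISCs). The genes were taken by symbol from the gene table, and all 10 were found among its 47729 genes. The donors of the cells were *Lgr5-EGFP-IRES-creERT2* mice aged 8 to 10 weeks, whose small intestine was used and in which green fluorescent protein and Cre recombinase are made from the *Lgr5* locus, and the brightest EGFP cells that carried EpCAM but no CD24, CD31, CD45 or TER119 were collected. There were 4 groups of 3 libraries: mice left unrestrained but without food and water for the same time (Ctrl), mice restrained in a tube (CRS), mice given sulfobutylether-β-cyclodextrin by intraperitoneal injection (Vehicle) and mice given the same with corticosterone, the main glucocorticoid of mice, once at 5 mg/kg (CORT). The labels abbreviate the stress group as CRS, a name used for chronic restraint, whereas the study describes a single exposure for this experiment, with restraint sessions of 3 h. All mice carried the *Lgr5* knock-in allele, mice of both sexes were used, and the study puts the treatment at 1 day without naming the hours from the end of restraint or the injection to sorting. The joined library numbers CRS 1+2 and CRS 4+5+6 read as pools of several mice, and the study states in general that the samples of a group were biologically independent, while the labels do not tie libraries to animals, so p-values measure the spread between libraries.

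Crypt base columnar cells divide at the bottom of the crypt, where Wnt proteins, bound through Frizzled receptors and amplified by Lgr5 and its R-spondin ligands, keep β-catenin and TCF factors active on target genes. *Ascl2* is such a target and encodes a basic helix-loop-helix factor that binds E-boxes and helps to hold the stem cell state. *Myc*, also a Wnt target, drives ribosome production, nucleotide synthesis and cell growth. *Olfm4* and *Smoc2* encode secreted proteins that mark the same cells, and both serve as stem cell markers in mouse small intestine.

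Promoter sequence was matched for 6 of the 10 genes in a RefSeq table for GRCm38.p6, the build to which the reads were aligned (mm10). The bases just upstream of *Ascl2* (250 bases, chr7:142969265-142969514, minus strand) and *Cdca7* (190 bases, chr2:72475969-72476158, plus strand) are shown because these genes were lower after corticosterone, and those of *Olfm4* (250 bases, chr14:80000052-80000301, plus strand) because this gene was not. Each is written 5′ to 3′ and ends at the base before the gene model, and capitals mark an E-box (CANNTG) or a glucocorticoid receptor half-site (AGAACA) on either strand.
Ascl2: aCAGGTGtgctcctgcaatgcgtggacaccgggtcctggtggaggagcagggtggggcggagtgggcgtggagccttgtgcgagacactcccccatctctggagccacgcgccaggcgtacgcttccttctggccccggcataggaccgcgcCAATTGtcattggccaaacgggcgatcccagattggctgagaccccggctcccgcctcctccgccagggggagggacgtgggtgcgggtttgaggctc
Cdca7: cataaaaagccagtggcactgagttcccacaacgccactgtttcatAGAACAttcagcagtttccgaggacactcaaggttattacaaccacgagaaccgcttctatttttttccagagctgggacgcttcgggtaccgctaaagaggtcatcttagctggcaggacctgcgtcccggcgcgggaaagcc
Olfm4: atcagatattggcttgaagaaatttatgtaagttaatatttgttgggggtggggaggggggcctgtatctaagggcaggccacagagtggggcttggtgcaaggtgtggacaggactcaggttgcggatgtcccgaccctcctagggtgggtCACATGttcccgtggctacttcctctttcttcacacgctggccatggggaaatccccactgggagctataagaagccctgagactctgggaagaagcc
The capitals of *Ascl2* are 2 E-boxes that begin 249 and 98 bases before the gene, those of *Olfm4* 1 E-box 98 bases before it, and those of *Cdca7* 1 half-site 144 bases before it. The other motif searched, the TCF core CTTTGA, had no match in these 3 sequences. Over windows of 250 bases before the RefSeq start, an E-box was present in 66.2% of 32851 windows, the half-site in 16.1% and the TCF core in 13.8%. At least 1 window held an E-box for 4 of the 6 genes, the half-site for 1 and the TCF core for 1 (*Tnfrsf19*). These 6 genes had 9 windows, so the counts per gene are not in the same unit as the shares of windows. A match describes the letters only.

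Total counts per library were 16152289 to 16943362 in Ctrl, 15934907 to 17135770 in CRS, 16465961 to 31280267 in Vehicle and 29426183 to 69533214 in CORT. Levels are CPM, library-scaled counts adjusted with TMM factors over the 12 libraries. The 6 ISC markers of the sort summed to between 10620 and 13850 CPM in each library. Of this sum, *Olfm4* alone made up 6844 to 10290 CPM. The median of these markers was 548.2 to 604.1 CPM in Ctrl and 490.5 to 521.4 in CRS. It was 529.7 to 580.6 CPM in Vehicle and 441 to 519.8 in CORT, so the groups overlapped in neither comparison. *Ascl2*, *Olfm4* and *Smoc2* are on this list, so it is no independent check on the crypt base genes. Enterocyte markers (9 genes) summed to 769.2 to 859.1 CPM in Ctrl. In CRS 1+2, 3 and 4+5+6 they summed to 1728, 1033 and 3054. By the test 6 of the 9 rose in CRS, as did 1.3% of all genes, and the list median was 3.03 on the log2 scale. Goblet markers (8 genes) summed to 537.1 to 680.5 CPM in Ctrl and 542.1 to 1521 in CRS. In CORT and Vehicle the enterocyte sums were 881 to 973.1 and 786.5 to 927.7 CPM. Paneth markers (8 genes) summed to 107.3 to 120.8 in CORT and 192.1 to 219 in Vehicle. Of these sums, *Mmp7* alone made up 32.3 to 42.3 CPM in CORT and 78.7 to 100.8 in Vehicle. By the test 5 of these 8 were lower in CORT, as were 4.5% of all genes. Tuft markers summed to at most 13.8 CPM and stromal and endothelial markers to at most 4.07, with *Il25*, *Cdh5*, *Col3a1*, *Acta2* and *Kdr* at 0 in all libraries. Enteroendocrine markers summed to at most 86.85 CPM. Blood cell markers summed to 81.29 to 1392 CPM, although *Hbb-bs* was at 0 and the list median was at most 0.1146. Of this list *Cd74* had a mean count of 11517 over the libraries, against 80.9 for *Itgam* and 1.6 for *Ptprc*. Their part in the results that follow was not tested. In such bulk samples, fewer cells of a type and less RNA per cell cannot be told apart.

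Per length, *Olfm4* was far above the other crypt base genes. In Ctrl it was at 4350 ± 278 FPKM (SD, n = 3) and ranked 3rd of all genes by its mean over the 12 libraries. *Slc12a2*, which encodes a sodium, potassium and chloride cotransporter, followed at 283.6 ± 35.9 FPKM and its range overlapped that of *Cdca7* at 249.9 ± 17.1. Then came *Smoc2* at 171.4 ± 11.2, *Myc* at 118.6 ± 12.2 and *Rgmb* at 107.6 ± 11.7 FPKM, the last 2 with overlapping ranges. *Ascl2* was 7th at 82.2 ± 3.50 FPKM, below all *Rgmb* libraries. *Sox9* (45.7 ± 1.85), *Soat1* (34.5 ± 3.65) and *Tnfrsf19* (16.2 ± 2.66) closed the order, and *Lgr5* itself was at 43.8 ± 4.21 FPKM, overlapping *Sox9*. *Ascl2* had the widest span of the 10 over the 12 libraries, its highest FPKM value being 3.30 times its lowest, against 2.03 for *Myc*, 1.93 for *Cdca7* and 1.40 for *Smoc2*. The order changed with the group: *Ascl2* was 6th in Vehicle, 7th in CORT and 8th in CRS, where it lay below *Sox9* on average (34.9 against 37.2 FPKM) with overlapping ranges. *Myc* was 5th in Ctrl, Vehicle and CORT and 6th in CRS, below *Rgmb*.

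**Figure D1:**
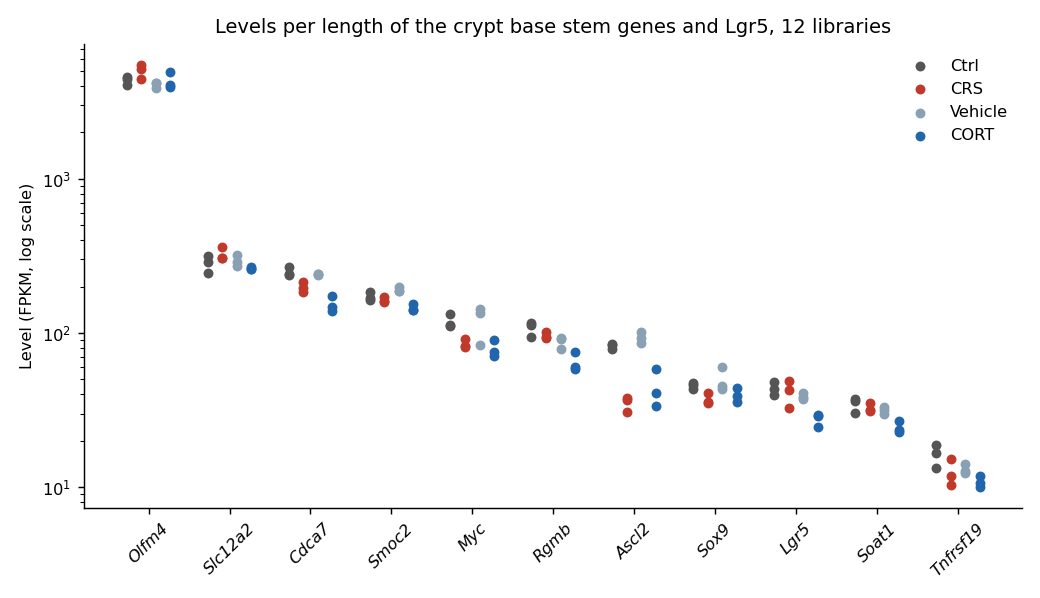
FPKM on a log axis for the crypt base genes and *Lgr5*, ordered by the mean of the Ctrl libraries, 1 point per library and colours for the groups. *Olfm4* is at 3886 FPKM or more in every library, while *Tnfrsf19* is at most at 18.6, and the CRS points of *Ascl2* (30.5 to 37.6) lie apart from those of Ctrl (78.2 to 84.8).

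The first question was how restraint relates to these genes. *Ascl2* fell in CRS to 0.427 times its Ctrl level and *Myc* to 0.723 times, while *Olfm4*, *Smoc2*, *Slc12a2* and *Lgr5* did not pass the test. By edgeR's quasi-likelihood test on 3 against 3 libraries with Benjamini-Hochberg adjustment over 13722 genes, 2 of the 10 genes were called at an adjusted p below 0.05, both lower. Over all genes tested, 1.89% were called, 0.59% lower and 1.3% higher. In 4 of the 10 (*Ascl2*, *Myc*, *Sox9* and *Cdca7*) all CRS libraries lay below all Ctrl libraries, and groups did not overlap for 20.4% of all genes. The log2 fold change was below 0 for 8 of the 10, with a median of -0.22, against 50.5% of all genes and a median of -0.003.

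*Ascl2* (ENSMUSG00000009248, chr7:142966829-142969264, minus strand) was at 147.0, 137.5 and 145.7 CPM in Ctrl 1, 2 and 3 and at 53.4, 68.6 and 61.4 CPM in CRS 1+2, 3 and 4+5+6. The groups were far apart and each was tight. The log2 fold change was -1.23 ± 0.10 (SE, 95% interval -1.46 to -0.998, edgeR adjusted p = 3.36e-04). *Ascl2* was the only one of the 10 genes that also changed more than 2-fold, as 0.751% of all genes did. Without CRS 1+2, 3 or 4+5+6 the change was -1.14, -1.32 and -1.23 (edgeR adjusted p = 0.00189, 6.1e-05 and 0.00225).

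*Myc* (ENSMUSG00000022346, chr15:61985341-61990374, plus strand) was at 255.2, 292.3 and 242.9 CPM in Ctrl and at 180.1, 195.1 and 194.9 CPM in CRS. The CRS libraries were close together and below all of Ctrl. The log2 fold change was -0.47 ± 0.09 (SE, edgeR adjusted p = 0.0332). This call was lost without any 1 library other than CRS 3. The adjusted p from edgeR was 0.144, 0.15 and 0.0827 without Ctrl 1, 2 or 3. It was 0.153 and 0.0811 without CRS 1+2 or CRS 4+5+6, and 0.018 without CRS 3. The share of all genes called also moved, from 1.89% to between 0.396% and 0.81%, and to 5.98% without CRS 3. The *Myc* call was also lost with no filter on low counts (0.113), with limma on FPKM (0.0806 and 0.0761 at the pseudocounts 1 and 0.1) and in 1 fit of the 12 libraries (0.141). The size moved less, between -0.52 and -0.39 over these.

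*Sox9* (ENSMUSG00000000567, chr11:112782224-112787760, plus strand), an HMG-box factor of crypt progenitors that Paneth cells require, was at 216.9, 213.9 and 195.9 CPM in Ctrl and 188.5, 168.5 and 156.3 in CRS. The groups did not overlap, but the change of -0.29 ± 0.09 (SE) missed the threshold (edgeR adjusted p = 0.173). *Cdca7* (ENSMUSG00000055612, chr2:72476159-72486893, plus strand), a Myc-responsive gene whose product recruits the chromatin remodeller Hells, was at 632.6, 622.1 and 680.9 CPM in Ctrl and 544.2, 526.5 and 458.6 in CRS. Again CRS was lower throughout, with a change of -0.34 ± 0.09 (SE, edgeR adjusted p = 0.102). Without CRS 3 both *Cdca7* (-0.36, adjusted p = 0.0368) and *Tnfrsf19* (-0.56, adjusted p = 0.0424) passed in edgeR, and DESeq2 called *Cdca7* with all libraries (adjusted p = 0.00864).

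*Olfm4*, *Smoc2* and *Lgr5*, which like *Ascl2* are on the list of ISC markers, changed less than *Ascl2*. The cells were gated on EGFP made from the *Lgr5* locus, and the part of this gate in the levels of these genes was not tested. *Olfm4* (ENSMUSG00000022026, chr14:80000302-80021930, plus strand) was at 8346, 7406 and 7905 CPM in Ctrl and 9492, 10290 and 7822 in CRS, so the groups overlapped through CRS 4+5+6. Its change was 0.23 with an interval of -0.01 to 0.46 (edgeR adjusted p = 0.362). *Smoc2* (ENSMUSG00000023886, chr17:14279506-14404790, plus strand) was at 579.3, 514 and 516.8 CPM in Ctrl and 543, 512.4 and 491.3 in CRS, and the interval of its change ran from -0.24 to 0.13. *Lgr5* was at 223.1, 205.2 and 243 CPM in Ctrl and 245.6, 172.4 and 214.1 in CRS, with an interval of -0.37 to 0.20 (edgeR adjusted p = 0.823).

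*Slc12a2* (ENSMUSG00000024597, chr18:57878678-57946821, plus strand) was at 2096, 1788 and 2242 CPM in Ctrl and 2638, 2290 and 2158 in CRS, a change of 0.21 with overlapping groups (edgeR adjusted p = 0.405). *Tnfrsf19* (ENSMUSG00000060548, chr14:60963834-61046855, minus strand), a Wnt-induced receptor of the tumour necrosis factor receptor family also called Troy, was at 86.4, 68.8 and 93.9 CPM in Ctrl and 60.8, 80.9 and 51.7 in CRS. One CRS library, CRS 3, was inside the Ctrl range, and the change of -0.36 had an interval of -0.73 to 0.01. *Rgmb* (ENSMUSG00000048027, chr17:15806253-15826586, minus strand), a membrane-anchored co-receptor of bone morphogenetic proteins, was at 277.0 to 331.5 CPM in Ctrl and 261.2 to 297.3 in CRS. *Soat1* (ENSMUSG00000026600, chr1:156424525-156474331, minus strand), which stores cholesterol as esters, was at 275.7 to 328.9 and 260.3 to 309.2 CPM. Both overlapped between the groups, with changes of -0.16 and -0.09 (edgeR adjusted p = 0.508 and 0.73). *Rgmb* lies over *Chd1* on the opposite strand, with mean counts of 6279 and 3314, and no source says that strand was used in counting, so its level is less certain than the others.

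**Figure D2:**
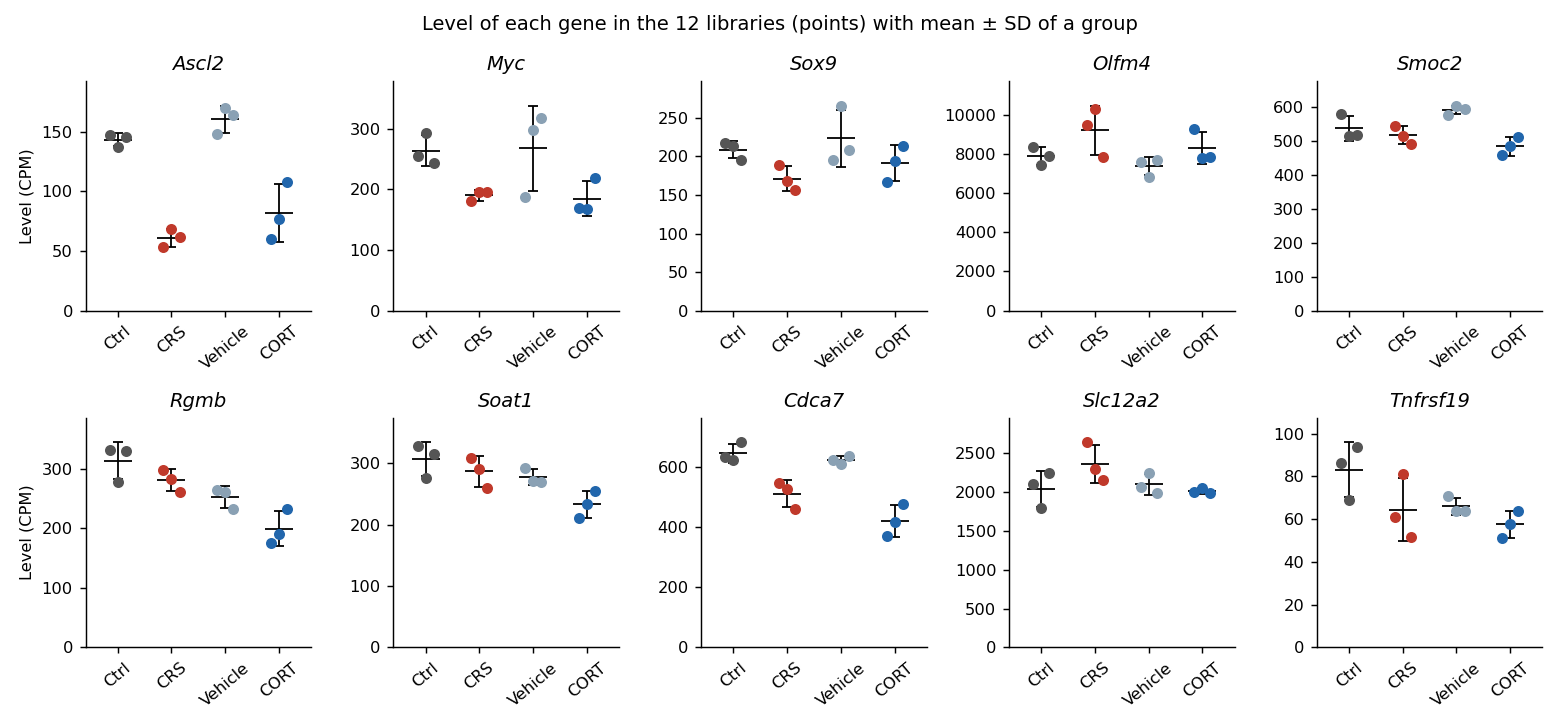
CPM of the 10 crypt base genes in every library (points), with the mean ± SD of 3 libraries per group (bars). *Ascl2* is at 53.4 to 68.6 in CRS and 60.2 to 108 in CORT, below all Ctrl and Vehicle libraries (137.5 to 170), while *Slc12a2* is at 1788 to 2638 over all groups.

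The second question was how injected corticosterone relates to the same genes. *Ascl2* fell in CORT to 0.501 times its Vehicle level, *Cdca7* to 0.667 times and *Smoc2* to 0.807 times, and *Lgr5*, outside the 10, fell to 0.743 times. edgeR called 3 of the 10 genes, all lower, whereas 8.13% of 14656 genes tested were called, 4.5% lower and 3.64% higher. The groups did not overlap for 6 of the 10, with 5 lower (*Ascl2*, *Smoc2*, *Rgmb*, *Soat1* and *Cdca7*) and *Olfm4* higher, against 28.7% of all genes. The log2 fold change was below 0 for 9 of the 10, with a median of -0.29, compared with 47.9% of all genes and a median of 0.014. No gene of the 10 was both called and changed more than 2-fold, as 1.87% of all genes were, with *Ascl2* closest.

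*Ascl2* was at 147.9, 170.0 and 163.6 CPM in Vehicle 3, 5 and 6 and at 60.2, 76.8 and 108.0 CPM in CORT 2, 4 and 5. CORT 5 lay between the other CORT libraries and Vehicle, and the groups stayed apart. The log2 fold change was -0.998 ± 0.183 (SE, 95% interval -1.41 to -0.585, edgeR adjusted p = 0.0114). Without CORT 4 the adjusted p from edgeR was 0.0588 at a change of -0.95, and without CORT 5 the change was -1.25 (adjusted p = 0.00157).

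*Cdca7* was at 621.9, 607.8 and 636.9 CPM in Vehicle and 371, 415 and 476.5 in CORT. Vehicle was tight and every CORT library was below it. The change of -0.59 ± 0.10 (SE, edgeR adjusted p = 0.0093) kept its call under all 13 alternatives, with an adjusted p of at most 0.0491. *Smoc2*, at 576.8, 600.5 and 594.4 CPM in Vehicle, was at 456.6, 483 and 511.8 in CORT. This was a small and even difference, -0.31 ± 0.08 (SE, edgeR adjusted p = 0.0474). Leaving out any single library ended the call: the adjusted p from edgeR was 0.0725, 0.132 and 0.0841 without Vehicle 3, 5 or 6 and 0.129, 0.161 and 0.09 without CORT 2, 4 or 5, and it was 0.0832 with no filter on low counts.

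*Lgr5* was at 209.0, 192.8 and 195.4 CPM in Vehicle and 130, 160.9 and 159.5 in CORT, without overlap. Its change was -0.43 ± 0.10 (SE, edgeR adjusted p = 0.0277), and the adjusted p rose to 0.0723, 0.0636 and 0.0554 without Vehicle 3, 5 or 6 and to 0.0613, 0.0622 and 0.053 without CORT 2, 4 or 5. *Lgr5* overlaps A930009A15Rik on the opposite strand, which had a mean count of 370.2 against 4773.

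*Myc* was at 186.7, 297.8 and 317.8 CPM in Vehicle and 168.5, 167.1 and 218.7 in CORT. Vehicle 3 was far below the other Vehicle libraries and inside the CORT range. The change of -0.55 ± 0.19 (SE) did not pass the threshold (edgeR adjusted p = 0.112). Without Vehicle 3 it was -0.75 and passed (edgeR adjusted p = 0.0147), whereas without another library it did not, at 0.0977 to 0.31.

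*Rgmb* was at 264.4, 260.7 and 231.8 CPM in Vehicle and 175.5, 190.9 and 231.6 in CORT, and *Soat1* at 293.4, 270.9 and 269.3 and at 211.6, 233.7 and 254.5. The groups nearly touched in *Rgmb* and were apart in *Soat1*, with changes of -0.36 ± 0.11 and -0.27 ± 0.09 (SE, edgeR adjusted p = 0.091 and 0.104). DESeq2 called both (adjusted p = 0.0136 and 0.0283), and edgeR called *Rgmb* without CORT 5 (-0.49, adjusted p = 0.0361). *Sox9* was at 195.9, 265.8 and 208.7 CPM in Vehicle and 166.7, 194.1 and 214.0 in CORT, and *Tnfrsf19* at 70.7, 63.8 and 63.7 and at 51.3, 57.6 and 63.9. Both overlapped, with changes of -0.24 and -0.22 (edgeR adjusted p = 0.313 and 0.22).

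*Olfm4* and *Slc12a2* again did not pass. *Olfm4* was at 7575, 6844 and 7691 CPM in Vehicle and 9253, 7787 and 7847 in CORT, slightly higher throughout, with a change of 0.15 (interval -0.08 to 0.37, edgeR adjusted p = 0.42). *Slc12a2* was at 2060, 2248 and 1986 CPM in Vehicle and 1996, 2050 and 1984 in CORT (interval -0.28 to 0.11). For 8 of the 10 genes, all but *Olfm4* and *Slc12a2*, the highest CORT library was CORT 5, which had the fewest counts of that group, and the part of depth in this was not tested.

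**Figure D3:**
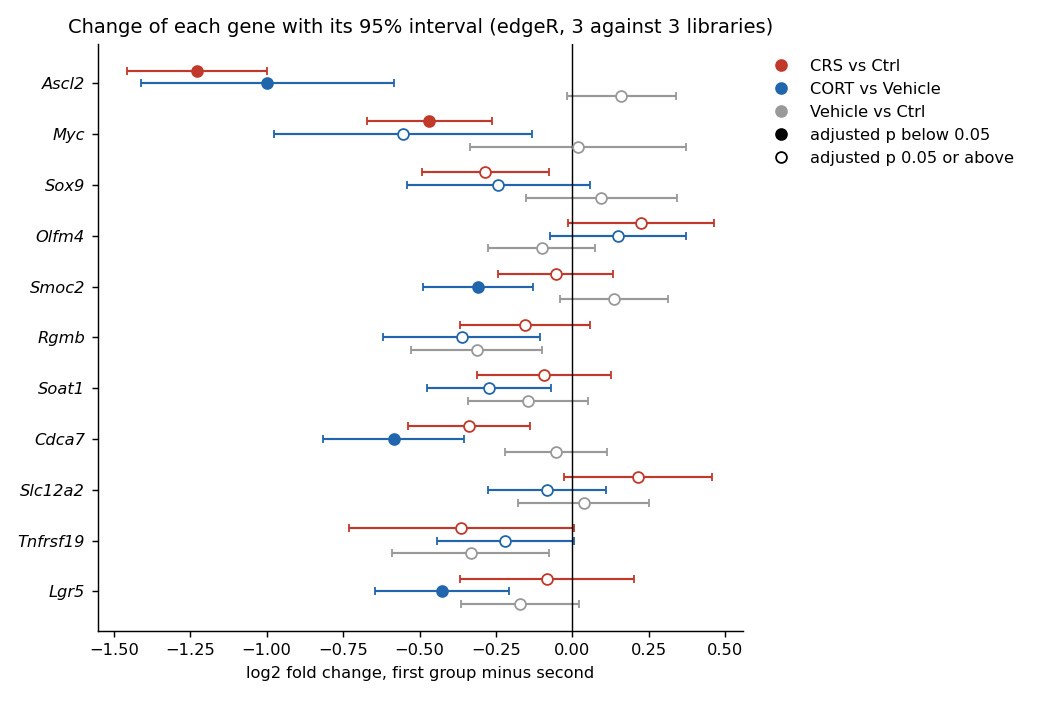
Log2 fold change (first group minus second) of the 10 genes and *Lgr5*, with 95% intervals from edgeR on 3 against 3 libraries, filled where the adjusted p was below 0.05. *Ascl2* lies at -1.23 and -0.998 in CRS and CORT and at 0.16 between the control groups.

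Between the control groups, which share their libraries with the comparisons above, edgeR called 0 of the 10 genes, as did DESeq2, and 0.799% of 13642 genes were called. At an unadjusted p below 0.05 there were 2, *Rgmb* (-0.31 ± 0.10 in Vehicle against Ctrl, edgeR adjusted p = 0.211) and *Tnfrsf19* (-0.33 ± 0.12, adjusted p = 0.28). *Ascl2* was 0.16 ± 0.08 (SE) and *Myc* 0.02 ± 0.16. The difference of both responses, that of CRS less that of CORT, was tested in 1 model of the 12 libraries. edgeR called 0 of the 10 and DESeq2 0, with 0.388% of 14415 genes called, and 1 gene, *Smoc2*, was at an unadjusted p below 0.05 (0.25 ± 0.11, edgeR adjusted p = 0.366). For *Ascl2* the difference was -0.23 with an interval of -0.73 to 0.26, for *Myc* 0.08 (-0.41 to 0.58) and for *Cdca7* 0.24 (-0.05 to 0.54). For *Lgr5* it was 0.34 (-0.03 to 0.71).

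**Figure D4:**
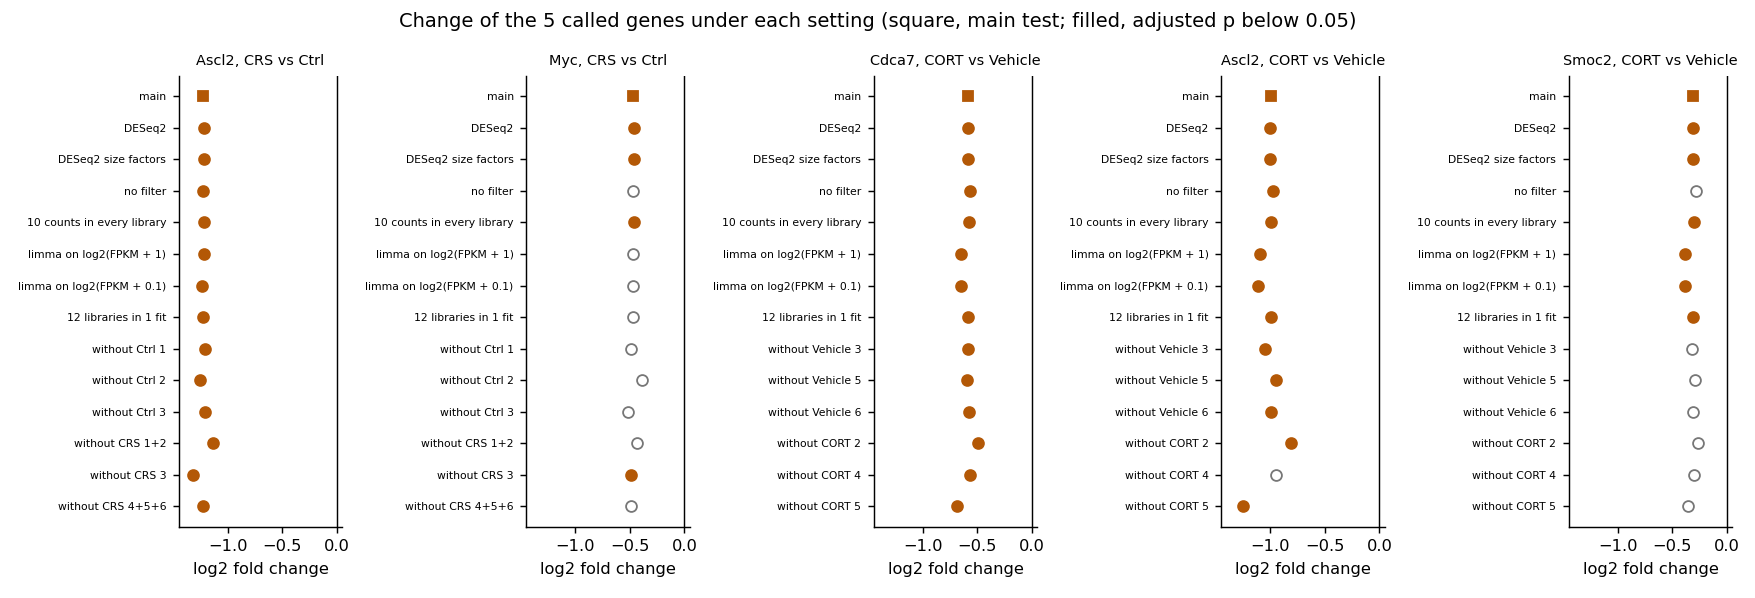
Log2 fold change of the 5 called results under the main test (square) and 13 alternatives (circles), filled where the adjusted p was below 0.05. *Ascl2* in CRS and *Cdca7* in CORT are filled throughout, whereas *Myc* in CRS and *Smoc2* in CORT keep their size and lose the call under 9 and 7 alternatives.

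The other stem cell genes of the crypt base, a list of 28, were next. In CRS, 4 were lower and 1 higher, and 17 of 28 were below 0 with a median of -0.07. Of all genes, 0.59% were called lower and 1.3% higher, and 50.5% were below 0. *Slc14a1*, a urea transporter, fell from 123.6 to 38.2 CPM on average (-1.69 ± 0.11 SE), with no library of CRS above 43.7 and none of Ctrl below 114.8. *Pdgfa*, a growth factor (-0.80), and *Zfp703*, a transcriptional repressor (-0.71), also fell, and these 3 calls held under all 13 alternatives. *Phlda1* (-0.51, edgeR adjusted p = 0.0403) fell too, but not without Ctrl 1, 2 or 3, CRS 1+2 or CRS 4+5+6 (adjusted p of at least 0.0565), nor with no filter on low counts, limma on FPKM or 1 fit of 12 libraries, so that 4 of 13 alternatives kept the call. *Nrn1*, encoding neuritin, rose from 39.5 to 83.4 CPM (edgeR adjusted p = 0.00493, and 0.0561 with no filter on low counts). *Axin2*, a feedback inhibitor and common readout of Wnt signalling, was at 582.3 to 629 CPM in Ctrl and 489.7 to 522.8 in CRS, without overlap and not called (-0.27 ± 0.08 SE, edgeR adjusted p = 0.121). In CORT it was at 425.4 to 527.8 CPM and in Vehicle at 464.9 to 560.8, with overlap and not called. All Vehicle libraries were below all of Ctrl for this gene, also not called.

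In CORT, 9 of the 28 were lower and 2 higher, with 17 below 0 and a median of -0.18. Of all genes, 4.5% were called lower and 3.64% higher, and 47.9% were below 0. *Scn2b*, a sodium channel subunit, was at 144.3, 121.7 and 133.4 CPM in Vehicle and 63.5, 60 and 77.5 in CORT (-1.01 ± 0.11 SE, edgeR adjusted p = 0.00108). *Mex3a*, an RNA-binding protein of slowly cycling stem cells, fell from 32.9 to 16.7 CPM on average, and *Lrig1*, which restrains ErbB receptors, from 395.7 to 278.4. The calls of *Scn2b* and *Mex3a* held under all alternatives, and that of *Lrig1* under all but the fit without CORT 4 (adjusted p = 0.0615). *Pdgfa* fell again (-0.98), though not without Vehicle 6 or CORT 4 (edgeR adjusted p of at least 0.0562), and *Esrrg*, an orphan nuclear receptor, rose (0.40), though not without CORT 2 or CORT 5 (adjusted p of at least 0.0522) nor with limma on FPKM (adjusted p of at most 0.119). *Esrrg* was at 53.6 to 58 CPM in Vehicle and 70.7 to 78.7 in CORT, which is inside its Ctrl range of 68.2 to 85.2.

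Between the control groups, 15 of the 28 were below 0 in Vehicle against Ctrl (median -0.04), and *Slc14a1* and *Jun* were lower. Of all genes, 0.799% were called in either direction and 49.7% were below 0. *Slc14a1* was at 75.2, 49.3 and 68.4 CPM in Vehicle and 122.6, 114.8 and 133.4 in Ctrl (-0.94 ± 0.14 SE, edgeR adjusted p = 0.0102), a call lost without Ctrl 1 or 3 (adjusted p of at least 0.0557), with limma on FPKM and in 1 fit of 12 libraries, and in CORT it was at 11.5, 21.6 and 36.6 CPM. *Jun*, an immediate early gene, was at 113.2 to 144.2 CPM in Vehicle and 209.1 to 246.1 in Ctrl (-0.78 ± 0.10 SE, edgeR adjusted p = 0.00661), a call lost without Ctrl 1 (adjusted p = 0.062).

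Among the 20 Wnt target genes of the crypt, 17 were tested. In CRS, 10 of 17 were below 0 (median -0.08), against 50.5% of all genes, with *Zfp703* and *Rgcc* lower and *Mmp7* higher. In CORT 14 of 17 were below 0 (median -0.23), against 47.9% of all genes, with *Mmp7*, *Zfp703*, *Lgr5* and *Ephb2* lower. Of all genes, 0.59% were called lower and 1.3% higher in CRS, and 4.5% and 3.64% in CORT. *Rgcc* fell from 43.5 to 22 CPM (-0.99), though not without Ctrl 1, 2 or 3 or CRS 4+5+6 (edgeR adjusted p of at least 0.143), and 6 of 13 alternatives kept the call, which was also lost with no filter on low counts and with limma on FPKM. *Ephb2*, a receptor that positions cells along the crypt, fell from 207.5 to 169.4 CPM (-0.31), though not without Vehicle 3, 5 or 6 or CORT 4 or 5 (edgeR adjusted p of at least 0.0559), and here 5 of 13 kept the call, with losses under the same filter and limma settings. *Zfp703* in CORT was -0.79 and lost its call without Vehicle 5 or 6 or CORT 2 or 4 (edgeR adjusted p of at least 0.0559). The 2 lists share *Axin2*, *Lgr5*, *Rnf43*, *Znrf3*, *Sp5* and *Zfp703*.

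*Ascl2* pairs with E proteins and is opposed by Id proteins, which lack a DNA-binding region. Of 11 partners and inhibitors, 10 were tested, and in CRS *Id2* fell from 33.9, 28.4 and 26.8 CPM to 12.8, 12.8 and 10.8 (-1.29 ± 0.15 SE, edgeR adjusted p = 0.00334, called under all alternatives). In that comparison 7 of 10 were below 0 with a median of -0.29, against 50.5% of all genes. *Id2* was the only 1 of them called, and 0.59% of all genes were called lower. In CORT 5 of 10 were below 0 with a median of -0.02, against 47.9% of all genes. *Id2* was at 10.3, 13.6 and 18.4 CPM in CORT and 23.3, 20.3 and 24.3 in Vehicle. None of the 10, *Id2* included, was called in CORT, and 8.13% of all genes were.

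*Myc* acts as a dimer with Max, and Mxd and Mlx proteins compete for Max or for the same sites. Of the 12 genes of this network, *Mlxip*, encoding the glucose-responsive factor MondoA, rose in both comparisons, from 253.8 to 262.9 CPM in Ctrl to 374.8 to 412.5 in CRS (0.63 ± 0.08 SE) and from 255.2 to 326.4 in Vehicle to 448.6 to 550.7 in CORT (0.84 ± 0.12 SE). The call in CRS was lost without Ctrl 1 (edgeR adjusted p = 0.0506). *Mxd1*, a Max partner that represses Myc sites, rose in CRS from 12.3 to 29.5 CPM on average (1.26), though not without Ctrl 1, 2 or 3 (edgeR adjusted p of at least 0.0801), with no filter or with limma on FPKM (7 of 13 alternatives kept the call). In CORT, *Mycn* rose from 3.49, 6.13 and 3.66 CPM to 11.6, 14.9 and 12.7 (1.54 ± 0.25 SE, edgeR adjusted p = 0.00592), while *Mycl* fell from 132.1 to 86.5 CPM on average (-0.63), though not without Vehicle 3 or 5 or CORT 2 or 4 (adjusted p of at least 0.05). *Max* was -0.11 ± 0.11 in CRS and -0.23 ± 0.10 in CORT (SE), neither called.

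Of 40 listed Myc target genes, which serve ribosome production, nucleotide and polyamine synthesis and growth, 35 were below 0 in CRS with a median of -0.18 and 36 in CORT with a median of -0.18, and 36 were above 0 in Vehicle against Ctrl with a median of 0.14 and 0 called. In all genes the medians were -0.003, 0.014 and 0.002, and 50.5%, 47.9% and 49.7% were below 0. Vehicle against Ctrl thus went the other way, and it shares libraries with both other comparisons. By the test, 2 fell in CRS (*Srm* and *Ccnd2*) and 8 in CORT (*Srm*, *Ccnd2*, *Rrs1*, *Apex1*, *Nolc1*, *Umps*, *Polr1b* and *Ppan*). Of all genes, 0.59% were called lower in CRS and 4.5% in CORT. *Srm*, the spermidine synthase, was at 63.2, 69.2 and 66 CPM in Ctrl and 38.4, 41 and 39.9 in CRS, and at 79.7, 72.1 and 97.7 in Vehicle and 44, 39.4 and 48.6 in CORT. Its changes were -0.73 ± 0.09 and -0.94 ± 0.12 (SE), without overlap in either comparison and called under all alternatives. *Rrs1*, a ribosome assembly factor, fell in CORT (-0.76 ± 0.10 SE), as did the cyclin gene *Ccnd2* (-0.87 ± 0.11 SE), both under all alternatives, and in CRS *Ccnd2* (-0.50) lost its call without Ctrl 1, 2 or 3, CRS 1+2 or CRS 4+5+6 (edgeR adjusted p of at least 0.0643), with no filter or with limma on FPKM (5 of 13 kept). *Apex1*, a DNA repair endonuclease (-0.40), and *Nolc1*, a nucleolar chaperone (-0.32), were called in CORT but not without Vehicle 5, CORT 2 or CORT 5, nor for *Nolc1* without CORT 4 (edgeR adjusted p of at least 0.0525). *Apex1* overlaps *Tmem55b* on the opposite strand, with mean counts of 2853 and 2053, so its level is less certain.

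**Figure D5:**
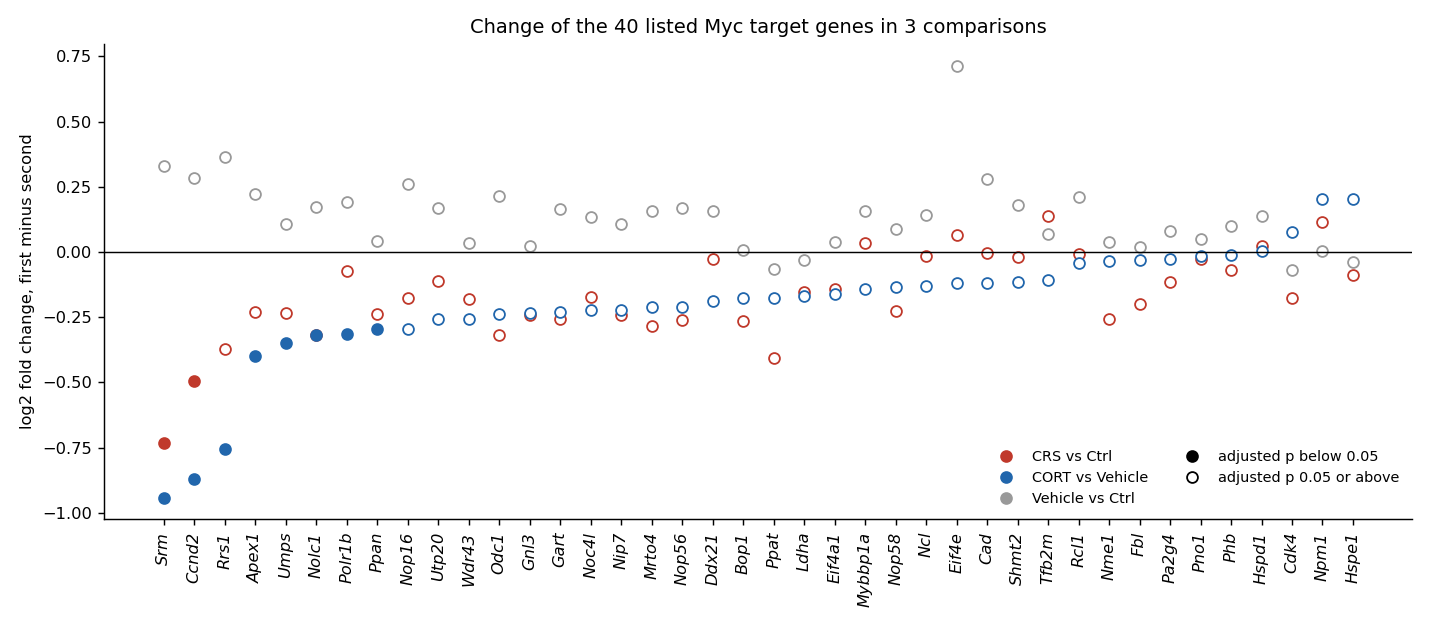
Log2 fold change of the 40 listed Myc target genes, ordered by their value in CORT against Vehicle, filled where the adjusted p was below 0.05. The CRS and CORT points are mostly below 0 (35 and 36 of 40) and the points of Vehicle against Ctrl mostly above it (36 of 40).

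Related and partner genes were uneven. Of 26 family members of the 10 genes, 15 were tested in CRS and 16 in CORT, and medians were 0.11 and -0.19. *Sox4*, a factor of the same family as *Sox9*, fell in CRS (-0.52) and in CORT (-0.89), from 345.5 to 240.4 and from 313.5 to 172 CPM on average, though in CRS not without Ctrl 1 or 3, CRS 1+2 or CRS 4+5+6 (edgeR adjusted p of at least 0.0565), with no filter or with limma on FPKM (6 of 13 kept). *Tnfrsf21*, a death receptor related to *Tnfrsf19*, rose in CORT from 9.10 to 18.3 CPM in the Vehicle libraries to 43 to 46.2 (1.63 ± 0.21 SE, edgeR adjusted p = 0.00213). *Slc12a3*, a relative of *Slc12a2*, passed the test in both comparisons at very low levels, 0 CPM in all Ctrl and 0.784 to 1.43 in CRS libraries, and 0.327 to 1.27 in Vehicle and 2.73 to 3.34 in CORT. These calls of *Slc12a3* were lost without any 1 of 5 libraries of either comparison, all but CRS 3 and Vehicle 5 (edgeR adjusted p of at least 0.106 in CRS and 0.055 in CORT). The call in CRS was also lost with no filter and with limma on FPKM (3 of 11 alternatives kept it, adjusted p up to 0.316), and that in CORT with limma on log2(FPKM + 0.1). Of 14 partners of *Cdca7*, *Slc12a2*, *Rgmb* and *Soat1*, 8 were below 0 in CRS and 7 in CORT, against 50.5% and 47.9% of all genes. The chromatin remodeller *Hells*, with which the Cdca7 protein acts, was 0.13 ± 0.10 (SE) in CORT, and *Dnmt1* was 0.13 ± 0.11, neither called. In CORT *Nceh1*, which releases cholesterol from the esters that Soat1 makes, fell from 40.5 to 24.8 CPM (-0.73), though not without Vehicle 5 or 6 or CORT 2 or 4 (edgeR adjusted p of at least 0.0814), and *Acat2*, an acetyl-CoA acetyltransferase, rose from 45.4 to 57.8 CPM (0.33), a call lost without any single library (adjusted p of at least 0.052), with limma on FPKM and in 1 fit of 12 libraries.

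The called proliferation markers (of 13 genes) were all higher. In CRS *Top2a*, *Ccnb1* and *Mki67* rose (0.45, 0.55 and 0.43), with 7 of 13 above 0. In CORT *Rrm2*, *Top2a* and *Birc5* rose (0.99, 0.43 and 0.31), with 11 of 13 above 0. Of all genes, 1.3% were called higher in CRS and 3.64% in CORT, and 50.5% and 47.9% were below 0. The list summed to 2236 to 2413 CPM in Ctrl, 2304 to 2466 in CRS, 2311 to 2437 in Vehicle and 2664 to 2970 in CORT. The sums overlapped between CRS and Ctrl and not between CORT and Vehicle.

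The likeness of other genes to *Ascl2* and *Myc* was described by Pearson's r of log2 CPM over the 12 libraries among 14401 genes, with no test since the libraries fall into 4 groups. Among the genes most like *Ascl2* were *Pelo* (r = 0.973, Spearman's rho = 0.944), *Gata5* (0.968, rho 0.958), *Efna3* (0.952, rho 0.937) and *Inafm2* (0.942, rho 0.923). After each library's group mean was taken away, r was 0.785 for *Pelo*, 0.777 for *Gata5*, 0.68 for *Efna3* and 0.497 for *Inafm2*. *Gata5*, a zinc-finger transcription factor, was at 109.5 to 130.8 CPM in Ctrl, 66.3 to 82.5 in CRS, 120.4 to 145.3 in Vehicle and 76.2 to 96.8 in CORT. *Pelo* lies inside *Itga1* on the same strand, with mean counts of 613.3 and 556.8, so its reads may be shared.

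Most like *Myc* were *Pygo2*, a co-activator of β-catenin (r = 0.956, rho 0.937), *Fbxl14* (0.951, rho 0.93), *Scamp3* (0.905, rho 0.839), *Cdc42ep4* (0.902, rho 0.867) and *Tysnd1* (0.898, rho 0.874). Here r stayed at 0.78 to 0.916 after the group means were taken away. *Pygo2* changed little, with 73.6 to 77.3 CPM in Ctrl, 62 to 66.9 in CRS, 65.1 to 77.3 in Vehicle and 60.4 to 67.6 in CORT. Among the 10 genes themselves, *Ascl2* and *Myc* had r = 0.8, which was 0.543 after the group means were taken away, and *Rgmb* and *Soat1* had the highest of the 45 pairs (r = 0.961, 0.905 without the group means). *Ascl2* and *Olfm4* had r = -0.706 (-0.309 without the group means), and *Ascl2* and *Slc12a2* -0.401 (-0.085).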

How the data were processed

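RNA-seq of 12 libraries of sorted ISCs was used (Ctrl, CRS, Vehicle and CORT, 3 each), grouped by their labels. The authors aligned reads to mm10, and per the labels' processing notes HISAT2 2.2.1 and StringTie 2.2.1 were used, while the methods name other software for counting. The authors deposited estimated counts per gene, in which a count stood for 75 covered bases (median 74.99 per library), so a count is not a fragment. Coverage, a signal deposited by the authors, served only to find this unit. FPKM values, deposited by the authors, served for levels between genes and for alternatives. Counts were rounded to whole numbers.

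Tests were run in R 4.3.3 with the quasi-likelihood method of edgeR 4.0.16, after TMM scaling and filterByExpr, with Benjamini-Hochberg adjustment over all genes tested, on the 6 libraries of a comparison, and on 12 for the difference of responses. A call is an adjusted p below 0.05. Alternatives were DESeq2 1.42.0, its size factors in edgeR, other filters, limma 3.58.1 on log2(FPKM + 1) or log2(FPKM + 0.1) of genes with a mean FPKM of at least 0.1, 1 fit of all libraries, and leaving out each library. The script was tested on simulated data. Of the table's IDs 47224 matched the GENCODE annotation, and for symbols that occurred more than once (126) the gene with the higher mean count was used.

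The 10 genes and all lists (stem cell genes, Wnt targets, partners, families, the Myc network, Myc targets and cell type markers) were chosen with earlier results of these data known. Named were the 10 genes, *Lgr5*, up to 5 called genes with the smallest adjusted p of each list and comparison, and the 5 genes most like *Ascl2* and *Myc*. Some single genes of these are not reported here. *Axin2*, *Jun*, *Max*, *Hells* and *Dnmt1*, further called genes of the Myc target and stem cell lists, and single marker genes were named outside this rule, after their values were seen. Intervals cover the spread between libraries.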

Additional observations from a re-analysis of the deposited data

Results flagged for a closer look

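*Mmp7*, encoding matrilysin, a protease of Paneth cells that stands in the list of Wnt targets, responded in opposite directions. It was at 25.6, 23.9 and 16.4 CPM in Ctrl and 40.4, 39.9 and 39.6 in CRS, and at 78.7, 92.1 and 100.8 in Vehicle and 32.3, 36.4 and 42.3 in CORT. It rose in CRS (0.87 ± 0.16 SE) and fell in CORT (-1.32 ± 0.12 SE), and the difference of both responses was 2.18 on the log2 scale (edgeR adjusted p = 6.88e-04, called under all 18 alternatives). Vehicle itself was above Ctrl by 2.04 ± 0.16 (SE, edgeR adjusted p = 1.83e-04). The rise in CRS lost its call without Ctrl 1, 2 or 3, CRS 1+2 or CRS 4+5+6 (edgeR adjusted p of at least 0.0705), with no filter on low counts and with limma on FPKM (5 of 13 alternatives kept it, adjusted p up to 0.122). *Mmp7* is also 1 of the 8 Paneth markers. Of these, 7 were above 0 in CRS and 8 below 0 in CORT, where 50.5% and 47.9% of all genes were below 0. In the difference of both responses 7 of the 8 were above 0, with a median of 1.06.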

How the results depend on the processing

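Of the calls in the 10 genes, *Ascl2* in CRS and *Cdca7* in CORT held under all 13 alternatives. Of the 10 genes, 2 were called in CRS, against 3 by DESeq2, 1 with no filter on low counts, with limma on log2(FPKM + 1), with limma on log2(FPKM + 0.1) and with 1 fit of all 12 libraries, and 1 to 4 when a library was left out (4 without CRS 3). In CORT 3 were called, against 5 by DESeq2, 2 with no filter and 1 to 3 when a library was left out (1 without CORT 4). Vehicle against Ctrl and the difference of responses gave 0 throughout. The cause of these shifts was not tested. *Slc12a3* in CRS had no adjusted p in DESeq2 and too few counts for the filter of 10 counts in every library.

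Changes near 0 turned sign, none of them called. *Myc* in Vehicle against Ctrl was -0.006 and -0.007 with limma at the 2 pseudocounts and -0.114 to 0.216 over left-out libraries. In the same comparison, left-out libraries gave -0.05 to 0.109 for *Slc12a2* and -0.052 to 0.176 for *Sox9*. For the difference of responses, *Sox9* was 0.015 with limma at both pseudocounts and -0.193 to 0.045 over left-out libraries, against -0.016 to 0.175 for *Olfm4*, -0.056 to 0.281 for *Myc* and -0.416 to 0.021 for *Ascl2*. In CRS, left-out libraries gave -0.094 to 0.002 for *Smoc2* (0.002 without Ctrl 1) and -0.207 to 0.044 for *Lgr5* (0.044 without CRS 3).

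Over all genes, CRS had 179 higher and 81 lower calls, 404 and 212 by DESeq2, 35 and 11 with no filter, 50 and 25 with limma on log2(FPKM + 1), 309 and 201 in 1 fit of 12 libraries, and 560 and 289 without CRS 3. Without any other 1 library, CRS had 42 to 80 higher and 14 to 34 lower calls. CORT had 533 and 659, 827 and 1043 by DESeq2 and 314 and 654 with limma on log2(FPKM + 1), so that the higher share was 44.7% and 32.4%. With 1 library left out, CORT had 234 to 477 higher and 269 to 526 lower calls. DESeq2 called 396 genes in the difference of responses against 56. No paired analysis was run, because the labels tie no library of 1 group to a library of another and the study describes random assignment to groups.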
